A study of Mus musculus with 18 samples.

Results

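Quadriceps muscle of young mice that lack the fucosyltransferase gene Pofut1 in their muscle fibres was compared with that of floxed controls. The libraries compared are 6 of the 18 RNA sequencing libraries of the series, chosen by their labelled genotype and an age of 2 months. The 3 knockout libraries, numbered 80, 82 and 83, came from mice that carried both floxed Pofut1 alleles (Pofut1flox/flox) and Cre recombinase under the skeletal alpha actin promoter. The 3 floxed libraries, numbered 32, 57 and 92, came from mice with the same floxed alleles and no Cre. By their labels, the groups thus share the modified Pofut1 locus and differ by the Cre transgene and the deletion that it makes. The labels do not say whether they also differ elsewhere in the genome, and this was not tested. All mice are labelled C57/Bl6. Another 3 young libraries, numbered 61, 93 and 94, came from mice with the same Cre and wild-type Pofut1, and 9 libraries came from the same 3 genotypes at 17 months. Values of these other libraries are set beside the comparison below. They also enter its standard errors and p-values, because the tests were fitted over all 18 libraries unless a smaller fit is named. The p-values therefore do not depend on the 6 compared libraries alone. The promoter is active in muscle fibres, whereas whole muscle was sequenced, so the satellite cells, vessels, nerves and connective tissue in it should keep Pofut1. The labels do not say whether each library is a separate animal beyond its number, so p-values measure the spread between these samples.

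POFUT1 attaches O-fucose to particular EGF-like repeats as proteins fold in the endoplasmic reticulum. Notch receptors and their ligands are the best known proteins with such repeats, and Notch signalling holds muscle satellite cells, the stem cells of the tissue, in a quiescent state. In the floxed design only cells that express Cre lose the enzyme, and a muscle fibre can then be affected through its own proteins or through ligands that it presents to the cells beside it.

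The 6 libraries held 25711893 to 29703247 counts over 15224 genes. Levels are given as CPM, the counts of a gene per 1e6 counts of its library, with library sizes rescaled by the TMM method. The tissue label was borne out by fibre genes. Titin (Ttn), the elastic spring of the sarcomere, accounted for 18.9 to 21.5% of all counts, and Acta1, the actin of skeletal muscle, stood at 15340, 15430 and 15980 CPM in the floxed and 15840, 13640 and 17810 CPM in the knockout libraries. Of 10 fibre markers, 1 was low throughout: Eno3, the muscle enolase, read 0.570 to 1.31 CPM. Spearman correlations of log2 CPM were 0.978 to 0.988 within groups and 0.973 to 0.986 between them. Xist, transcribed from the inactive X chromosome, was high in floxed 32 (285 CPM) and knockout 82 (269 CPM). It was at 0.895 to 1.29 CPM in the other 4 libraries. Ddx3y, on the Y chromosome, was at 2.11 CPM in floxed 32 and 0.453 CPM in knockout 82. In the other 4 libraries it was at 164 to 193 CPM. By these genes floxed 32 and knockout 82 read as female and the others as male, so 1 library of each group stood apart in this respect.

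The targeted gene came first. Pofut1 (chromosome 2, 153241532 to 153271029, GRCm38) was at 19.6, 17.8 and 17.0 CPM in floxed libraries 32, 57 and 92. It was at 9.61, 9.30 and 9.61 CPM in knockout libraries 80, 82 and 83. Each knockout library lay below each floxed library, and the SD over the 3 knockout libraries was 0.175 CPM. The log2 difference was -0.93 ± 0.155 (SE), a knockout level of 0.525 times the floxed level, with an unadjusted p of 1.81e-05 and an adjusted p of 0.0863 in edgeR's quasi-likelihood test with Benjamini-Hochberg adjustment over all genes. By this adjustment it was not called at the threshold of 0.05. It was called in the fit of only the 6 libraries compared (adjusted p = 0.0406) and by DESeq2 (adjusted p = 0.000102). A count over the whole gene also holds exons outside any deleted segment and RNA of cells without Cre, so it does not measure the share of alleles deleted. In such bulk tissue, fewer cells of a type and less RNA per cell cannot be told apart. The young Cre libraries, with wild-type Pofut1, were at 13.81, 16.20 and 19.04 CPM.

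Across all genes, the test called 1 of 15224 (0.00657%) at an adjusted p under 0.05. At an unadjusted p under 0.05 it marked 960 genes (6.31%), of which 514 (3.38%) were higher and 446 (2.93%) lower in the knockout. In 1177 genes (7.73%) all 3 knockout libraries lay above all 3 floxed libraries, and in 1285 (8.44%) all lay below. The log2 difference was above 0 in 48.4% of genes, with a median of -0.01. The biological coefficient of variation was 20.1%, and the median standard error of a log2 difference was 0.193. DESeq2, on the same counts and design, called 44 of 15217 genes (0.289%), 25 higher and 19 lower. The authors' deposited table holds an adjusted p under 0.05 for 36 of 15186 genes (0.237%), 21 higher and 15 lower, and all 36 are among the 44. Their adjusted p in edgeR's test ranged from 0.0278 to 0.365, and in all 36 the groups did not overlap.

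**Figure D1:**
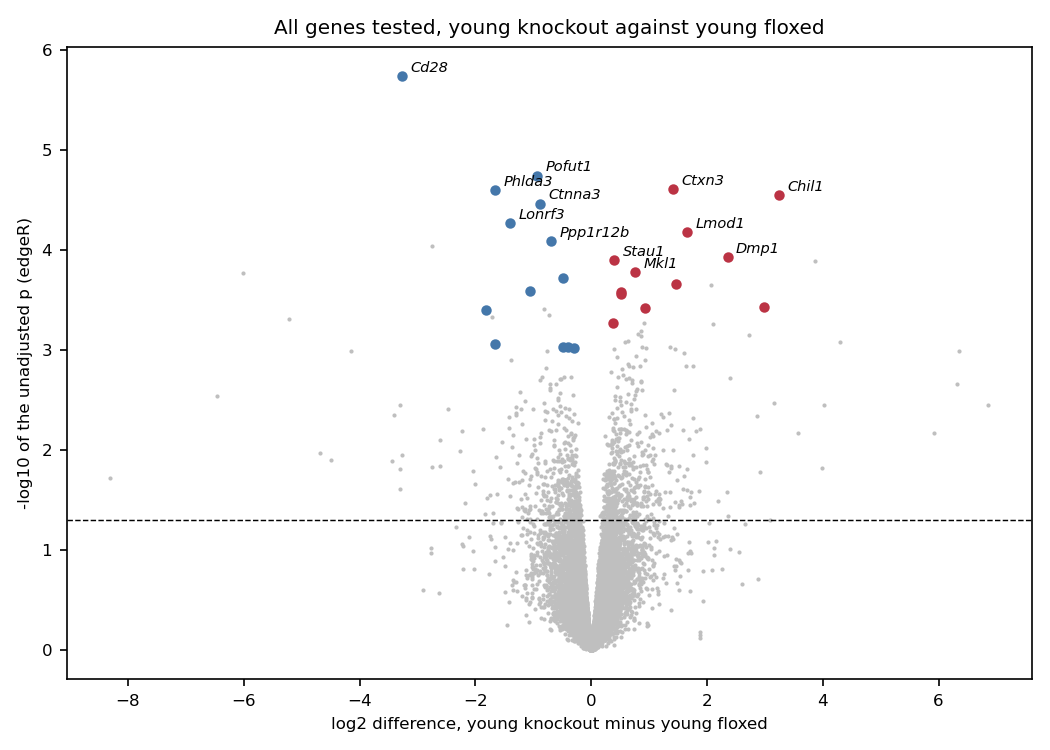
Each point is 1 of the 15224 genes, with the log2 difference between young knockout and young floxed muscle on the horizontal axis and -log10 of edgeR's unadjusted p on the vertical axis; the dashed line marks 0.05. Coloured points are Cd28, the 1 gene called after adjustment, and the 12 genes named in each direction, red where higher and blue where lower in the knockout.

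The gene called was Cd28, the costimulatory receptor of T cells (chromosome 1, 60746388 to 60773359). It was at 1.22, 0.756 and 0.998 CPM in the floxed and at 0.114, 0.0697 and 0.113 CPM in the knockout libraries, so that every knockout library lay far below every floxed one. Cd28 fell by 3.27 ± 0.449 (SE) on the log2 scale, with an adjusted p of 0.0278 in edgeR's test. The young Cre libraries read 0.105, 0.240 and 0.0747 CPM, as low as the knockout, and against them the knockout differed by a log2 of -0.50 (unadjusted p = 0.415). Over all 18 libraries, the 6 floxed ones spanned 0.425 to 1.22 CPM and the 12 that carry Cre 0.0697 to 0.296 CPM. Low Cd28 went with the Cre transgene in both ages, with or without floxed Pofut1. Other T cell genes had smaller differences: Cd247 (a chain of the T cell receptor complex) differed by a log2 of -0.11, Cd3g (another chain of it) by -0.13 and Il7r (the interleukin 7 receptor) by 0.87, with unadjusted p of 0.780, 0.892 and 0.219. These 3 and Cd28 are the 4 of 23 T and NK cell markers measured, and Cd3g was at 0.0360 to 0.358 CPM in the 6 libraries. The call was lost in the fits of the 9 young libraries (adjusted p = 0.0517 in edgeR's test) and of the 6 compared (0.0534). Cd28 kept an adjusted p under 0.05 in 2 of the 6 fits that left out a library and lost it without floxed 92 (0.0654) or without knockout 80, 82 or 83 (0.227 to 0.266).

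**Figure D2:**
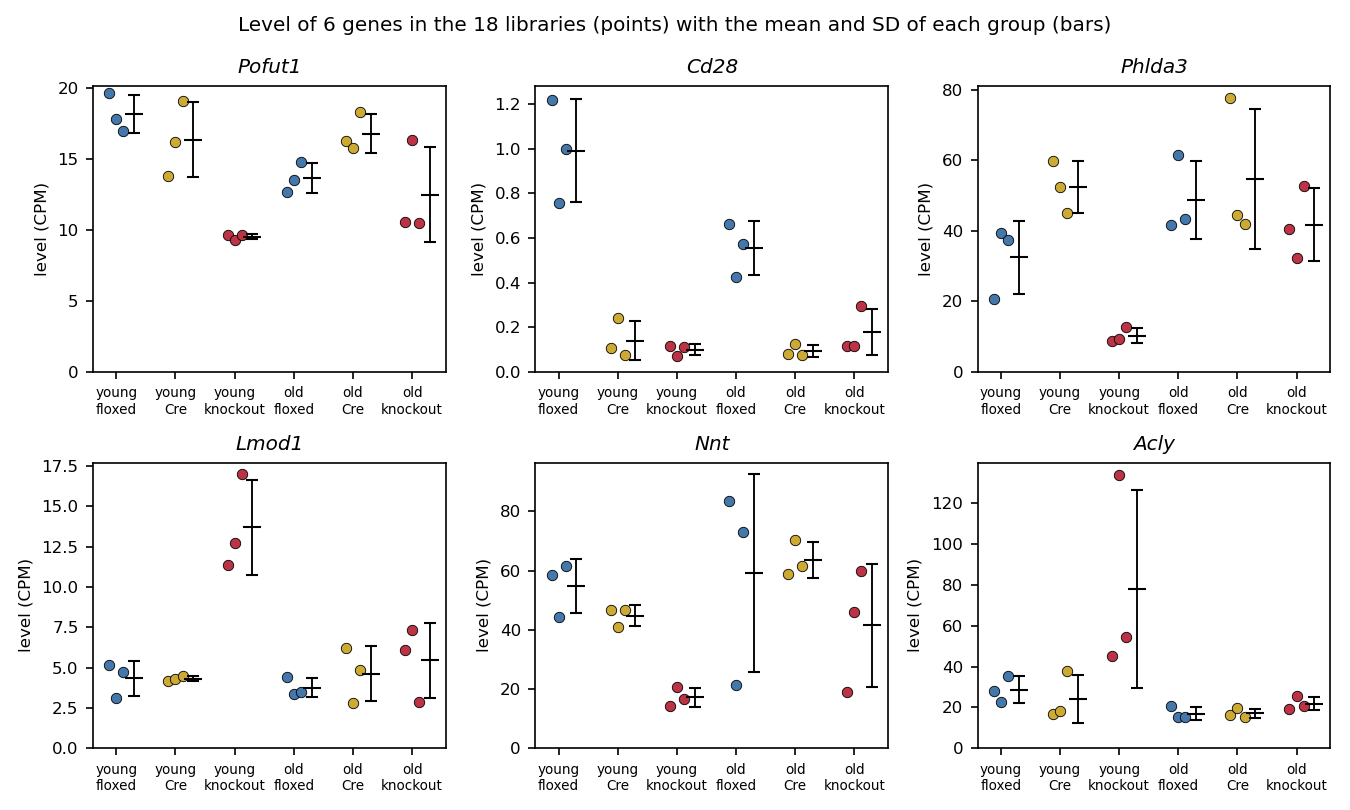
Levels in CPM (vertical axes, from 0) of Pofut1, Cd28, Phlda3, Lmod1, Nnt and Acly in the 18 libraries, by genotype and age; points are libraries and bars the mean and SD of 3. Young knockout Pofut1 lies between 9.30 and 9.61 CPM, under every young floxed library, while Cd28 is low in every group with Cre.

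Below the threshold, genes with a regular symbol were followed library by library. Genes with model or clone names were left out by this choice. Among them was Gm31629, with a log2 difference of -2.75 and an unadjusted p of 9.21e-05 in edgeR's test. By the rule for named genes, 12 genes were taken in each direction. Their log2 differences were 0.30 to 3.25 in size and their adjusted p-values 0.0863 to 0.312, so none was called by edgeR, whereas DESeq2 called 21 of the 24. Their choice rests on this comparison, and the values are a description.

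Among the genes higher in the knockout, Chil1, a secreted chitinase-like protein (chromosome 1, 134182156 to 134190031), was at 0.143, 0.108 and 0.138 CPM in the floxed and at 1.44, 1.43 and 0.945 CPM in the knockout libraries, a log2 difference of 3.25 ± 0.562 (SE). Lmod1, leiomodin 1, which nucleates actin filaments in smooth muscle (chromosome 1, 135324813 to 135368065), was at 5.16, 3.10 and 4.75 CPM against 11.4, 12.8 and 17.0 CPM, a log2 difference of 1.66. Both genes showed no overlap between the groups, and the young Cre libraries stayed near the floxed level (0.0350 to 0.261 CPM for Chil1 and 4.20 to 4.48 CPM for Lmod1). Ctse, the aspartic protease cathepsin E, differed by a log2 of 2.98 and Sctr, the secretin receptor, by 1.47. Dmp1, dentin matrix protein 1, which acts in bone mineralization, rested on low counts of 0.172 to 0.394 CPM in the floxed and 1.10 to 1.79 CPM in the knockout libraries. Its level in the young Cre libraries was 0.790 to 1.54 CPM, above the floxed range, and the Cre against floxed difference was a log2 of 2.12. Ctxn3, which encodes the small membrane protein cortexin 3, had log2 differences of 1.42 against floxed and 0.59 against Cre libraries. Smaller differences were seen in Mkl1, a coactivator of serum response factor (0.76), Sobp (0.51) and Dip2c (0.51). Stau1, which binds double-stranded RNA, differed by 0.40 and Tubg1, gamma-tubulin of microtubule nucleation, by 0.38. In Sobp the Cre libraries, at 17.5 to 22.4 CPM, lay above the floxed range of 15.2 to 16.7 CPM, and the knockout against Cre difference was 0.19. The remaining gene, Mfsd4, of the major facilitator family of transporters, differed by 0.94.

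Among the genes lower in the knockout, Phlda3, a p53 target that restrains AKT (chromosome 1, 135766085 to 135769134), was at 20.6, 39.3 and 37.5 CPM in the floxed and at 8.81, 9.30 and 12.6 CPM in the knockout libraries. The groups did not overlap, and the log2 difference was -1.66 ± 0.285 (SE). The young Cre libraries were at 45.0 to 59.7 CPM, all above the floxed range, and the Cre against floxed difference was a log2 of 0.69 (unadjusted p = 0.0227). Ppp1r12b, a regulatory subunit of myosin phosphatase (chromosome 1, 134754658 to 134955963), was at 309, 321 and 322 CPM against 192, 219 and 176 CPM, a log2 difference of -0.70, with all Cre libraries at 299 CPM or more. Ctnna3, alpha-T-catenin of cell junctions, was at 20.1 to 27.1 CPM in the floxed, 11.6 to 14.4 CPM in the knockout and 13.7 to 15.4 CPM in the Cre libraries, so the Cre controls sat with the knockout. B3galnt2, a glycosyltransferase that extends the sugars of alpha-dystroglycan, was at 141 to 157 CPM in the floxed and 102 to 110 CPM in the knockout libraries (log2 difference -0.49). The Cre libraries lay between the groups at 115 to 136 CPM. Lonrf3 differed by a log2 of -1.40 and Ube2t, a ubiquitin-conjugating enzyme of the Fanconi anaemia pathway, by -1.06. Ahctf1, the nuclear pore protein ELYS, differed by -0.40, Ly6a, the surface antigen Sca-1, by -0.49, and Nptn, the adhesion protein neuroplastin, by -0.30. In Nptn the Cre libraries, at 57.8 to 63.8 CPM, lay below the floxed range of 67.7 to 72.4 CPM, and the knockout against Cre difference was -0.09.

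Of the 24 genes, the knockout against Cre difference had the same sign in all 24 and an unadjusted p under 0.05 in 20. Of all genes, 4.43% were higher and 3.85% lower at that p in that comparison. The Cre against floxed difference had an unadjusted p under 0.05 in 7, where 2.25% of all genes were higher and 2.12% lower. Among these 7 is Phlda3, in which Cre lay above and the knockout below the floxed range. In 10 genes no Cre library lay within the floxed range, a count for which no share over all genes was computed. These 10 include Phlda3, and also Chil1 and Ppp1r12b, whose Cre libraries lay on both sides of that range. These comparisons share libraries with the main one, so the values stand side by side and add no separate weight. For 11 of the 24 no annotated gene overlaps. For the others, such as Mkl1 with Sgsm3, Tdg with Glt8d2 and Mfsd4 with Elk4, the strand setting of the counting is not given in the sources used here, and reads from overlapping genes could not be separated.

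**Figure D3:**
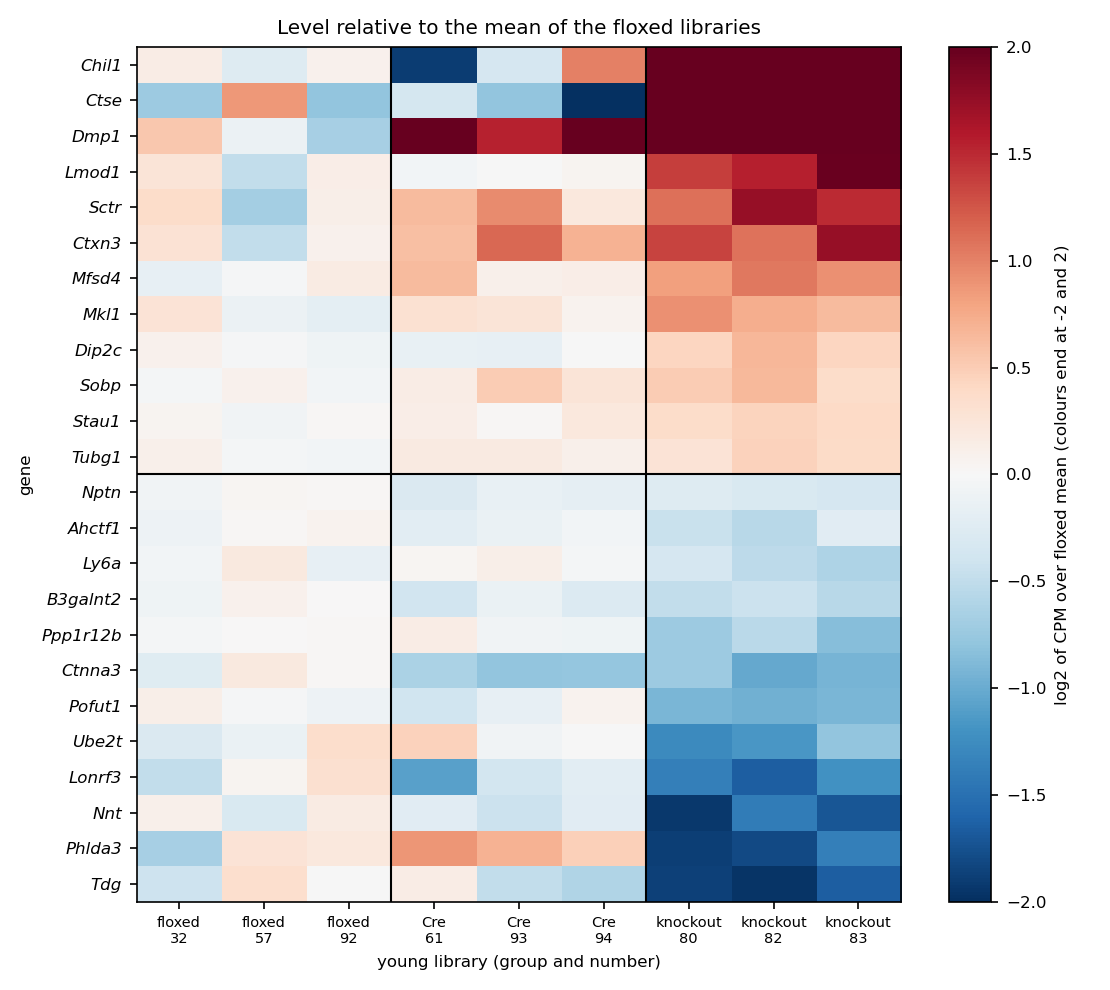
The 24 genes (rows) in the 9 young libraries (columns), coloured by the log2 ratio of the CPM to the mean of the 3 floxed libraries, with colours ending at -2 and 2. The 3 knockout columns stand apart by the choice of genes; the Cre columns resemble the floxed ones for Lmod1 and Ppp1r12b and the knockout ones for Dmp1 and Ctnna3.

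Several genes had a high or low pattern across the 18 libraries of both ages. Nnt, the mitochondrial nicotinamide nucleotide transhydrogenase (chromosome 13, 119335527 to 119409257), was at 58.5, 44.2 and 61.4 CPM in the floxed and 14.4, 20.8 and 16.7 CPM in the knockout libraries, a log2 difference of -1.66 ± 0.407 (SE, adjusted p = 0.312 in edgeR's test). Over the 18 libraries it was at 14.4 to 21.2 CPM in 5, the 3 young knockouts with old floxed 48 and old knockout 17, and at 40.8 to 83.6 CPM in the other 13. As background, the C57BL/6J substrain carries a deletion within Nnt that other C57BL/6 substrains lack, and the labels give no substrain. Tdg, thymine DNA glycosylase (chromosome 10, 82629814 to 82650799), was at 2.48 to 3.59 CPM in 5 libraries, the 3 young knockouts with old knockouts 17 and 45, and at 6.40 to 14.2 CPM in 13. Tdg has near-identical copies in the mouse genome, so its count is uncertain. The same 5 libraries held Gm32687, a predicted gene also on chromosome 10, at 0 to 0.0389 CPM, and the other 13 held it at 0.921 to 2.47 CPM. Gm2539, a long noncoding RNA on chromosome 10, was at 2.58, 4.50 and 2.69 CPM in the young knockouts and reached 1.79 to 3.49 CPM in old floxed 46 and 48 and old knockout 17, against 0 to 0.0358 CPM in the remaining 12 libraries. E030030I06Rik, its neighbour, split the libraries in the same way, at 2.24 to 4.63 CPM in 6 and 0.108 to 0.545 CPM in 12. Mdm4-ps, a pseudogene on the X chromosome, was at 0.544 to 1.19 CPM in 6 libraries and 0 to 0.108 CPM in 12. Its 6 were the 3 young knockouts with old floxed 5, old knockout 17 and old knockout 40. Gm32687, Gm2539 and Mdm4-ps were named after their values were seen, since fits of fewer libraries called them. The fit of only the 6 libraries compared also called Gm6969 (log2 -4.14) and Gm32584 (-1.23). For Tdg and Gm32687 the 5 low libraries are those with the lowest Pofut1 (9.30 to 10.6 CPM), and the library labelled old knockout 40, at 16.3 CPM of Pofut1, was not among them. For Nnt, Gm2539, E030030I06Rik and Mdm4-ps the split crossed the labelled genotypes at 17 months, and old floxed libraries stood with the young knockouts.

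Differences were uneven along the genome. Of 14722 genes placed on GRCm38, 237 (1.61%) had an unadjusted p under 0.01, against 316 (2.15%) in knockout against Cre and 119 (0.808%) in Cre against floxed muscle. Chromosomes 1 and 10 had the highest shares, each at 3.35%. In windows of 10 Mb with at least 15 genes, the highest share was 6 of 21 genes (28.6%) at 0 to 10 Mb of chromosome 13, where Dip2c (log2 0.51), Akr1e1 (an aldo-keto reductase, -0.53) and Pfkp (platelet phosphofructokinase of glycolysis, -0.52) lie. Next came 5 of 23 genes (21.7%) at 120 to 130 Mb of chromosome 1, with Sctr, Steap3, an iron reductase (log2 0.80), and Tmem37 (1.75). The following window, 130 to 140 Mb, held 14 of 86 (16.3%). These 14 include Ctse, Chil1, Lmod1, Phlda3 and Ppp1r12b, and further Pik3c2b, a phosphoinositide kinase (0.85), and Prelp, a matrix proteoglycan (0.51). In these 3 windows the knockout against Cre comparison had 4, 4 and 14 genes at that p, and Cre against floxed had 0 in each. Around Pofut1 itself, at 150 to 160 Mb of chromosome 2, the pattern was the opposite. Pofut1 was the 1 gene of 123 in the knockout against floxed comparison, where both groups carry the floxed allele, while 13 genes (10.6%) in knockout against Cre and 8 (6.5%) in Cre against floxed passed.

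**Figure D4:**
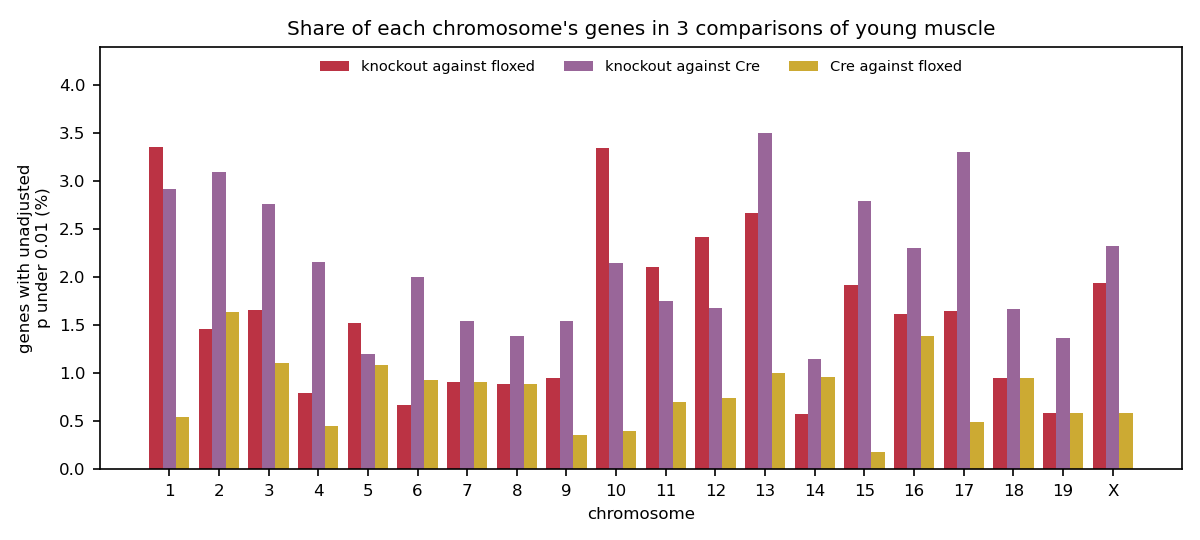
Percentage of the placed genes of each chromosome (vertical axis) with an unadjusted p under 0.01 in 3 comparisons of young muscle, which share libraries. In knockout against floxed muscle (red) chromosomes 1 and 10 are highest, each at 3.35%.

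Differences in the Notch pathway itself ran in both directions, and none of its measured genes was called. Of 4 receptors, 3 were measured. Notch1 was at 11.1, 13.1 and 10.7 CPM in the floxed and 13.6, 12.5 and 11.7 CPM in the knockout libraries, with overlapping groups and a log2 difference of 0.12 (95% interval -0.30 to 0.55). Notch2 and Notch3 differed by 0.08 each, with intervals of -0.31 to 0.48 and -0.60 to 0.77. Of 8 ligands 4 were measured, and Dll1 was at 5.55, 4.21 and 4.44 CPM against 6.001, 6.481 and 5.975 CPM (log2 0.38, unadjusted p = 0.144). Dll4 differed by -0.34, Jag1 by 0.04 and Jag2 by 0.24. Among 14 measured Notch targets, 10 differences were negative, with a median log2 of -0.14, and 1 had an unadjusted p under 0.05 in the higher direction and 0 in the lower, against 3.38% and 2.93% of all genes. With DESeq2 these counts were 1 and 2, in the fit of only the 6 libraries 0 and 2, and when each library was left out 0 or 1 and 0 to 2. The higher gene was Hes1, a transcriptional repressor, at 10.7, 8.10 and 8.05 CPM in the floxed and 10.1, 18.9 and 10.3 CPM in the knockout libraries, which overlap, with knockout 82 alone far above. Hey1, a related repressor, differed by a log2 of -0.58 (unadjusted p = 0.0526) and Nrarp, a feedback inhibitor of Notch, by -0.65 (0.0551). Of 18 genes of Notch cleavage and endocytosis, Furin, the protease that cuts the Notch precursor, had an unadjusted p under 0.05 (log2 0.49). So had Maml3, a Mastermind coactivator, among 11 nuclear factors (0.41). With 3.38% of all genes higher at that p, 1 gene in a list of this size is no result about the list.

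Other fucose genes and satellite cell genes were not shown to differ from the floxed level. Of 14 enzymes and transporters of O-fucose and GDP-fucose, Pofut1 was the 1 gene with an unadjusted p under 0.05, against 6.31% of all genes. Pofut2, which fucosylates thrombospondin repeats, was at 15.55, 12.99 and 13.25 CPM against 13.52, 11.95 and 13.92 CPM (log2 -0.09). Of 19 measured satellite cell genes, 0 had an unadjusted p under 0.05, with a median log2 of -0.08. These 19 genes are too few to tell 0 from the 6.31% of all genes. Pax7, the transcription factor that marks these cells, was at 1.51, 1.26 and 1.17 CPM in the floxed and 1.98, 1.74 and 1.32 CPM in the knockout libraries, which overlap (log2 0.36, 95% interval -0.39 to 1.10). Myf5, a regulator of the muscle lineage, was lower in each knockout library (log2 -0.42, unadjusted p = 0.182).

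Lipogenesis and cholesterol synthesis had, at 25% each, the highest shares of genes at an unadjusted p under 0.05 in 1 direction among the lists with at least 10 measured genes. Of 20 lipogenic genes measured, 16 differences were positive and 5 (25%, against 3.38% of all genes) had an unadjusted p under 0.05, all higher, with a median log2 of 0.46 against -0.01 over all genes. None was called after adjustment. Acly, which makes cytosolic acetyl-CoA, was at 28.1, 22.6 and 35.6 CPM in the floxed and 45.4, 134 and 54.6 CPM in the knockout libraries. Knockout 82 stood far above the rest, and the groups did not overlap (log2 1.44 ± 0.357, SE). Srebf1, the transcription factor SREBP1 of lipogenesis, was at 19.2, 28.0 and 22.3 CPM against 36.5, 34.3 and 34.7 CPM (log2 0.60). Fasn, fatty acid synthase, was at 34.2, 28.6 and 123 CPM against 101, 225 and 154 CPM, where floxed 92 lay within the knockout range (log2 1.36). Scd2, a stearoyl-CoA desaturase, differed by 0.74. Floxed 92 also held the most fat cell RNA. Adipoq, the adipocyte hormone adiponectin, was at 11.7, 24.4 and 112 CPM in the floxed and 28.4, 13.1 and 59.6 CPM in the knockout libraries, and the summed level of 20 adipocyte markers was 1637 to 4568 CPM in the floxed and 2461 to 3424 CPM in the knockout group. Of these markers, 13 differences were negative and 1, Ucp1 of brown fat, had an unadjusted p under 0.05 (log2 -3.31, resting on 88.6 CPM in floxed 92 alone). The part of fat cells in the lipogenic difference was not tested. Without floxed 92 the adipocyte markers turned to 19 positive of 20, with a median log2 of 0.79 and 6 higher at that p. The number of lipogenic genes at that p was 10 without floxed 92, 2 without knockout 82 or floxed 32, 3 without floxed 57 or knockout 83 and 5 without knockout 80. Against the young Cre libraries 11 of 20 were higher at that p, where 4.43% of all genes were higher and 3.85% lower. Cre against floxed muscle had 2 of 20 lower, against 2.12% of all genes. The adipocyte markers went the same way in both comparisons, with 18 of 20 positive (median log2 0.59) against Cre, and 19 of 20 negative (median log2 -0.78) with 5 lower at that p in Cre against floxed muscle.

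Cholesterol synthesis showed the same direction with narrower spreads. Of 20 genes, 16 differences were positive and 5 (25%) had an unadjusted p under 0.05, with a median log2 of 0.25, and in 8 of 20, against 7.73% of all genes, every knockout library lay above every floxed library. Insig1, which retains SREBP in the endoplasmic reticulum and is itself an SREBP target, was at 17.2, 17.1 and 21.9 CPM in the floxed and 24.8, 25.7 and 28.9 CPM in the knockout libraries. The 2 groups did not overlap, and the log2 difference was 0.50 ± 0.145 (SE). Lss, lanosterol synthase, was at 2.94, 2.70 and 3.10 CPM against 4.52, 5.85 and 3.74 CPM (log2 0.69). Sqle, squalene epoxidase (1.28), Pmvk, phosphomevalonate kinase (0.30), and Dhcr7, the last enzyme of the pathway (0.43), were the others. Hmgcs1, the synthase of an early step, differed by -0.06, so the list did not move as 1 block. The count was 2 without floxed 57, 3 without floxed 92 or knockout 82, and 5 to 7 without each of the other 3 libraries. Against the Cre libraries 4 of 20 were higher at that p, and Cre against floxed muscle had 0.

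The promoters of Insig1 and Lss are shown because these genes had the smallest p-values of the list. They are RefSeq windows of GRCm38.p6, 250 bases before to 50 after the annotated start, 5′ to 3′ on the strand of the gene, and capitals mark the motif CCAAT on either strand, which the factor NF-Y recognizes.
Insig1: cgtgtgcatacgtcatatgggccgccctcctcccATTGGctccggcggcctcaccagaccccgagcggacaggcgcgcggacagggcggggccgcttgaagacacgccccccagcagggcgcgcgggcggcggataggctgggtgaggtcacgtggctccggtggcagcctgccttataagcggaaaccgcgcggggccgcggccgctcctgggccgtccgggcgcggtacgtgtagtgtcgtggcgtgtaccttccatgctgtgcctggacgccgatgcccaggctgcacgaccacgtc
Lss: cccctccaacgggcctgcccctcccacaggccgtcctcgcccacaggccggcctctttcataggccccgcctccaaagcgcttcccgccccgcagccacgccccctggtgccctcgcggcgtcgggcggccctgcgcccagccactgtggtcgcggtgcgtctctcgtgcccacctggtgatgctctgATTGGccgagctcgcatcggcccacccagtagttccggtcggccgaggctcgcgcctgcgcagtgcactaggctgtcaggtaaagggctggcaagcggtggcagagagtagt
Insig1 lies at chr5:28071162-28071461 and Lss at chr10:76531355-76531654, both on the plus strand, and each window holds 1 match. Of the 20 listed genes 13 have a window, and all 13 hold CCAAT in at least 1 window. Of all 32851 windows, counted singly and not by gene, 37.4% hold it, so these shares are not counted alike. A match of letters shows no binding.

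Interferon response genes were lower on balance. Of 28 measured genes 25 differences were negative, with a median log2 of -0.27, and 3 (10.7%, against 2.93% of all genes) had an unadjusted p under 0.05, all lower; none was called after adjustment. Ifit1, which binds viral RNA, was at 3.30, 4.10 and 3.79 CPM in the floxed and 2.62, 1.78 and 1.97 CPM in the knockout libraries, with no overlap (log2 -0.81 ± 0.337, SE). Oas2, which senses double-stranded RNA, was at 2.69, 3.89 and 2.68 CPM against 2.92, 1.22 and 1.36 CPM, and Trim30a, a TRIM protein, at 8.17, 10.1 and 8.54 CPM against 8.51, 4.53 and 4.65 CPM. In both, knockout 80 lay within the floxed range and knockouts 82 and 83 far below it. Accordingly the count was 0 without knockout 82 or without knockout 83, 1 without floxed 57 and 2 to 4 without each of the others, and it was 7 in the fit of only the 6 libraries. Summed macrophage markers were at 336 to 457 CPM in the floxed and 473, 321 and 266 CPM in knockouts 80, 82 and 83. Knockout 80 was the highest of the knockouts in this sum and in Oas2, whereas Oas2 was highest of the 6 libraries in floxed 57. Of 18 macrophage markers 1, Lyve1 of resident macrophages, was lower at an unadjusted p under 0.05 (log2 -0.80). The part of immune cells in the interferon difference was not tested. Against the Cre libraries 8 of 28 were lower at that p, against 3.85% of all genes, and of the macrophage markers 15 of 18 were negative there (median log2 -0.37) with 0 at that p. Cre against floxed muscle had 1 of 28 higher, against 2.25% of all genes.

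The promoters of Ifit1 and Trim30a, genes of the list with low p-values, are shown with capitals on a pair of GAAA letters separated by 2 bases of any kind, on either strand, the core that interferon regulatory factors recognize.
Ifit1: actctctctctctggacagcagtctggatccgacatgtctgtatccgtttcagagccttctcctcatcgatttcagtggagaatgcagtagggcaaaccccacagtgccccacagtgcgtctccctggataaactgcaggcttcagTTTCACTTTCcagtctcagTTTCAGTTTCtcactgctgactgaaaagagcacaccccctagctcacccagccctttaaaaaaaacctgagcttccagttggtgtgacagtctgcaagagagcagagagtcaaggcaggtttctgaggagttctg
Trim30a: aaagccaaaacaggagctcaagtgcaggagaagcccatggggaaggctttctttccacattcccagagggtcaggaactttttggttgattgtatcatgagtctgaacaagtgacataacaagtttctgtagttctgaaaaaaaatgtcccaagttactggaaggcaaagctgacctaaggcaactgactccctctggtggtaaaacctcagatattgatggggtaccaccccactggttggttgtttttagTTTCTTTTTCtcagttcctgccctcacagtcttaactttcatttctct
Ifit1 lies at chr19:34640639-34640938 on the plus strand and Trim30a at chr7:104446076-104446375 on the minus strand, from the same RefSeq windows of GRCm38.p6. Ifit1 holds 2 matches and Trim30a 1, in 1 of the 2 windows of that gene. Of the 30 listed genes 20 have a window and 11 of these hold the motif in at least 1 window. Of all windows, counted singly and not by gene, 3.44% hold it, so these shares are not counted alike. The matches describe letters only.

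Fibre maturity and nerve contact genes were higher in a few members, whose levels in the Cre libraries also lay above the floxed range. Of 17 genes of immature and regenerating fibres 3 (17.6%, against 3.38% of all genes) were higher at an unadjusted p under 0.05. Myh3, embryonic myosin heavy chain, was at 9.998, 4.175 and 3.717 CPM in the floxed and 41.7, 17.6 and 5.82 CPM in the knockout libraries, which overlap (log2 1.86). In the young Cre libraries it was at 21.05 to 23.01 CPM. Tnnt2, cardiac and embryonic troponin T, was at 1.97, 1.33 and 1.45 CPM against 7.44, 4.50 and 2.34 CPM (log2 1.59), and at 4.44 to 6.20 CPM in the Cre libraries. Chrng, the fetal subunit of the acetylcholine receptor, was at 0 to 0.143 CPM against 0.151 to 0.836 CPM, near the limit of detection. Chrna1, the alpha subunit of that receptor, was at 11.3, 9.86 and 10.9 CPM in the floxed, 24.3, 16.8 and 13.7 CPM in the knockout and 16.9 to 27.1 CPM in the Cre libraries (log2 0.77 for knockout against floxed). Knockout 80 was the highest of the knockouts in all 4 genes. The count of 3 was 0 without floxed 57, floxed 92 or knockout 80, and 3 or 4 without each of the others. Against Cre muscle, 0 of the 17 genes had an unadjusted p under 0.05 in either direction. Of the 18 neuromuscular junction genes, 14 differences were positive with a median log2 of 0.16, and Chrna1 was the 1 at that p.

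Of 18 markers of fibro-adipogenic cells and fibroblasts 15 differences were negative and 3 (16.7%, against 2.93% of all genes) were lower at an unadjusted p under 0.05, with a median log2 of -0.23. Ly6a was at 26.4, 31.5 and 24.5 CPM in the floxed and 21.80, 18.99 and 17.96 CPM in the knockout libraries, with no overlap. Dpp4, a surface peptidase, differed by -0.50 and Dcn, the matrix proteoglycan decorin, by -0.27. Their summed level overlapped, at 2514 to 3164 CPM in the floxed and 2086 to 2837 CPM in the knockout libraries. The count was 1 without floxed 57 or knockout 83, 2 or 3 without each of the others, and 6 in the fit of only the 6 libraries. Cre against floxed muscle had 16 of 18 differences negative (median log2 -0.17), with 1 lower at that p, against 2.12% of all genes. Against the Cre libraries, 11 of 18 knockout differences were negative (median log2 -0.07). There 1 was higher and 1 lower at that p, against 4.43% and 3.85% of all genes. Of 23 proteostasis genes 9 differences were positive and 14 negative, with a median log2 of -0.08, and at that p 2 were higher and 4 lower, against 3.38% and 2.93% of all genes. Hspa5 (the endoplasmic reticulum chaperone BiP, log2 -0.33), Hspa8 (-0.34), Hspe1 (-0.33) and Dnajb4 (-0.47) were lower at that p, and Hspb6 (0.40) and Bag3 (0.26) higher. Leaving out a library gave 2 to 4 lower and 0 to 3 higher, with 2 and 0 without floxed 57, and the fit of only the 6 libraries gave 8 lower and 2 higher.

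Other classes varied. Of 39 nuclear genes of oxidative phosphorylation 0 had an unadjusted p under 0.05, against 6.31% of all genes, with a median log2 of -0.01. Of 38 extracellular matrix genes 1 was higher and 1 lower at that p, against 3.38% and 2.93% of all genes. Of 28 cell cycle genes 1 was higher at that p and 21 differences were negative (median -0.20). Without floxed 57, 16 of these 28 were positive. The median ran from -0.71 to 0.12 when each library was left out. Of 22 p53 targets, Phlda3 and Plk2 (a polo-like kinase, log2 -0.63) were lower at that p, against 2.93% of all genes. Of 16 smooth muscle markers 13 differences were positive and 1, Lmod1, was higher at that p, against 3.38% of all genes. Phlda3 and Lmod1 were already named above for their small p in this comparison. Of 7 B cell markers measured 6 differences were positive and 0 had an unadjusted p under 0.05, and Ighm, the immunoglobulin mu chain, was at 26.8, 32.9 and 26.3 CPM in the floxed and 97.9, 42.1 and 65.5 CPM in the knockout libraries, with no overlap (log2 1.25, unadjusted p = 0.113). LOC102640133, an unnamed gene model, was at 11.9 to 13.2 CPM in the floxed and 10.3 to 12.2 CPM in the knockout libraries (log2 -0.21), and at 1.71 to 2.35 CPM in the Cre libraries. Fast fibre genes had a median log2 of -0.10. Slow fibre genes depended on the library, with Myh7, slow myosin, at 6.33 to 556 CPM in the floxed and 162 to 530 CPM in the knockout group.

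**Figure D5:**
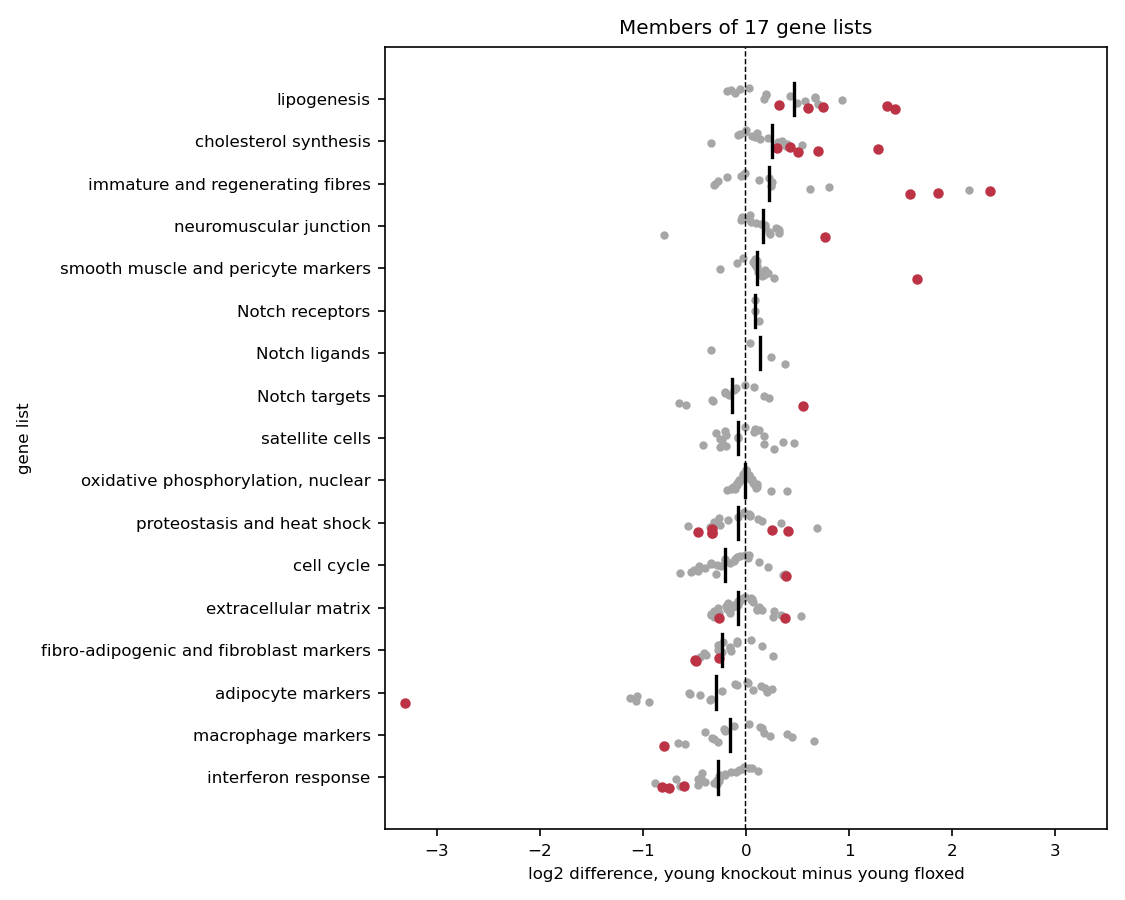
Log2 difference between young knockout and floxed muscle (horizontal axis) for each measured member of 17 gene lists (rows); red points have an unadjusted p under 0.05, black bars are list medians and the dashed line is the median of all genes (-0.01). Lipogenesis and cholesterol synthesis have 5 red points each above 0, and interferon response has 3 below.

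With edgeR, the knockout against floxed difference at 17 months was not shown to differ from that at 2 months for any single gene. The test of the difference between the ages called 0 of 15224 genes (0%) with edgeR, and 1922 (12.6%) had an unadjusted p under 0.05. DESeq2 called 59 of the 11088 genes to which it gave an adjusted p. Pofut1 differed between old knockout and old floxed muscle by a log2 of -0.13, with old knockouts 17 and 45 at 10.6 and 10.5 CPM and the library labelled old knockout 40 at 16.3 CPM, above the old floxed range of 12.7 to 14.8 CPM. The unadjusted p of the difference between the ages was 0.00209 for Pofut1. Without that library the test between the ages called 6 genes. Of the 24 named genes 19 kept their sign in old muscle, and 13, chosen for their young difference, had an unadjusted p under 0.05 in the test between the ages. Ppp1r12b, for instance, differed by -0.70 in young and 0.09 in old muscle (unadjusted p of the difference 0.000662), and Sobp by 0.51 and -0.28 (0.000109).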

How the data were processed

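The authors deposited raw gene counts for 15224 genes in 18 libraries of ribosome-depleted RNA from mouse quadriceps. The submitters' processing notes name STAR, HTSeq and DESeq2 and the builds GRCh38.p5 and GRCm38.p4. Their versions, the strand setting and the role of each build are unknown from these notes. The authors also deposited a normalized signal (counts divided by 1 factor per library), log2 fold changes and adjusted p-values, used only where the authors' deposited table is named.

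Counts were tested with edgeR (4.0.16), on limma (3.58.1) and R (4.3.3). The quasi-likelihood F-test used TMM factors (0.977 to 1.07 in the 6 libraries) and 1 mean for each of 6 groups over all 18 libraries, with 12 residual degrees of freedom. A minimum count of 10 (filterByExpr) removed no gene. P-values were adjusted by Benjamini-Hochberg over all genes and called under 0.05. The standard error is the log2 difference divided by the square root of F. DESeq2 1.42.0 and other alternatives are given in the closing section. Named genes were the targeted, Notch and chromosome 1 genes, every called gene, the 12 per direction with the smallest p among separated genes of at least 1 CPM with a regular symbol, up to 4 per described list with the smallest p and up to 10 that the authors' table calls; others are members of lists or windows and were chosen after their values were seen. Gene positions come from RefSeq of GRCm38.p6, matched by gene ID for 14722 genes. The comparison, members and lists were chosen with earlier results of these data known.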

Additional observations from a re-analysis of the deposited data

How the results depend on the processing

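The number of genes called in young knockout against floxed muscle, 1 as reported, was 1 with RLE factors, with no filter and with protein-coding genes only. It was 0 for genes averaging 1 CPM or more, 7 in the 9 young libraries, 10 in the 6 compared, 13 without the library labelled old knockout 40, 4 with an Xist covariate and 44 with DESeq2. Leaving out each of the 6 libraries gave 0 to 6: 6 without floxed 32, 1 without floxed 57, and 0 without floxed 92 or any knockout. The difference between the ages, 0 genes as reported, gave 6 without old knockout 40, 2 with an Xist covariate and 59 with DESeq2 (of 11088 genes). It gave 0 to 6 when each of 12 libraries was left out, with 4 without floxed 32. Pofut1 passed the threshold in the 9 young libraries (log2 -0.92, adjusted p = 0.0484), in the 6 (-0.92, 0.0406), without old knockout 40 (-0.93, 0.00446), under the Xist covariate (-0.93, 0.0422) and by DESeq2 (-0.93, 0.000102). Leaving out a library gave -0.98 to -0.86, with adjusted p from 0.140 to 0.521. The cause was not tested.

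For other named genes, 475 values under alternatives kept direction and side of the threshold, 40 crossed below the adjusted 0.05, 6 (all Cd28) lost it, and 11 changed sign. All sign changes came from leaving out a library in genes that were not called: Acta1 (-0.067 to 0.12), Notch2 (-0.00028 to 0.22), Notch3 (-0.012 to 0.30), Heyl (-0.085 to 0.38), Xist (-6.40 to 6.66) and Ddx3y (-0.69 to 0.47). Cd28 had log2 differences of -3.26 in the 9 young libraries (adjusted p = 0.0517) and -3.27 in the 6 (0.0534). List counts under these alternatives were added after seeing the data. No paired analysis was possible because the groups share no replicate numbers. Depth limited genes under about 1 CPM, such as Cd28, Chil1 and Dmp1.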
